A study of Mus musculus with 12 samples.

Results

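The mitochondrial genome of the mouse is a small circular DNA, held in many copies per cell, that encodes 13 subunits of the respiratory chain and ATP synthase, the 2 ribosomal RNAs of the mitochondrial ribosome and 22 transfer RNAs. The transcripts described here are all rows of the deposited expression table that lie on this chromosome, named MT there, which are 37 of 37991 genes. They were chosen by position and not by their values. The 13 protein-coding rows, the 2 rRNA rows and the 22 tRNA rows are described separately. Each protein-coding row is counted as an mRNA below, although some rows, such as mt-Atp8 and mt-Atp6, lie on a shared mRNA.

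The cells were hepatocytes from male mice, 10 weeks old, in which Nr1d1 (REV-ERBα) and Nr1d2 (REV-ERBβ) both carried loxP sites, so the controls carry the floxed alleles too. REV-ERBs are nuclear receptors that repress transcription and belong to the circadian clock. The mice had received, 2 weeks earlier, AAV8-TBG-Cre-GFP (called KO below) or AAV8-TBG-GFP (called control), viruses in which the hepatocyte promoter TBG drives the cargo. After plating on collagen, the cells were kept for 8 h with 10 µM SR9009, a drug marketed as an activator of REV-ERBs, or with the solvent DMSO. The 12 libraries form 4 groups of 3: KO SR9009, KO DMSO, control SR9009 and control DMSO. Cre was never given to mice lacking loxP sites, so an effect of Cre itself and one of REV-ERB loss cannot be told apart. The labels do not say whether replicates are separate mice, so p-values reflect nothing more than the scatter of these libraries, which may be technical.

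The whole-gene levels of the targeted genes do not check the deletion. Nr1d1 averaged 17.7 ± 0.459 FPKM in KO DMSO and 18.5 ± 0.412 FPKM in control DMSO libraries, and Nr1d2 averaged 16.2 ± 0.0949 FPKM in KO DMSO and 15.3 ± 1.87 FPKM in control DMSO libraries (± is the SD, n = 3). Arntl, a clock gene repressed by REV-ERB, averaged 6.49 ± 0.307 FPKM in KO DMSO and 0.214 ± 0.0796 FPKM in control DMSO libraries. Library totals lay between 538521 and 604449 FPKM, the highest being control SR9009 library 3. Depth relative to control DMSO library 1 was lowest in control SR9009 library 1, at 55.5%, and in KO DMSO library 1, at 63.4%, and 77% to 92.3% in the others. The 7 hepatocyte markers summed to 30900 to 31700 FPKM in KO SR9009, 33100 to 35300 in KO DMSO, 27900 to 29900 in control SR9009 and 31500 to 32100 in control DMSO libraries. Most of this sum was Alb, which was not called, and single markers did move. In DMSO, Apoa1, Ttr and Serpina1c were called higher in KO (log2 changes 0.42, 0.26 and 0.50) and 0 lower. Under SR9009 the same genes were higher (0.33, 0.29 and 0.54), and Tat and Hnf4a were lower (-0.53 and -0.37). Markers of other cell types moved with the genotype in both directions. The 7 Kupffer cell markers summed to 37.2 to 39.1 FPKM in KO SR9009, 30 to 39.2 in KO DMSO, 38.8 to 42.8 in control SR9009 and 36.5 to 46.2 in control DMSO libraries. Among them, in DMSO, Marco averaged 1.66 FPKM in KO and 9.52 FPKM in control libraries (log2 change -1.99, adjusted p = 1.21e-05), C1qa was lower too (-0.62, adjusted p = 0.0392) and Cd68 was higher (0.36, adjusted p = 0.0318). The 6 endothelial markers summed to 8.27 to 8.73 FPKM in KO SR9009, 8.6 to 12.8 in KO DMSO, 5.85 to 6.95 in control SR9009 and 5.43 to 6.17 in control DMSO libraries, with 2 called higher in KO DMSO. The 5 bile duct markers summed to 34.5 to 38.7 FPKM in KO SR9009, 29.1 to 38.8 in KO DMSO, 39.4 to 61.7 in control SR9009 and 42.1 to 44.7 in control DMSO libraries. Of these, in DMSO, Sox9 averaged 9.09 FPKM in KO and 2.67 FPKM in control libraries (1.46, adjusted p = 1.57e-05), Spp1 averaged 24.4 FPKM in KO and 39.9 FPKM in control libraries (-0.70, adjusted p = 0.00505), and Krt7 stayed at or below 0.0192 FPKM in all 12 libraries. The part of these cell types in the results below was not tested.

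Both strands of mitochondrial DNA are transcribed into long precursors by the polymerase POLRMT with the factors TFAM and TFB2M. The tRNAs lie between most of the other genes, and RNase P and ELAC2 cut at their ends, which releases the mRNAs and rRNAs. Polymerase MTPAP adds short poly(A) tails to the mRNAs, and the complex of LRPPRC and SLIRP protects many of them from decay, so that RNAs cut from one precursor can differ in level. In these files 12 mRNA, both rRNA and 14 tRNA rows lie on the plus strand, and mt-Nd6 and 8 tRNA rows on the minus strand. Strand here is that of the gene. Whether the libraries kept the strand of the RNA was not stated, so reads on minus-strand rows may come from plus-strand RNA. RNA was selected with oligo(dT) and rRNA was then depleted, per the labels' protocols. The rRNA rows show what was left after these steps, and whether that differed between libraries was not tested. Mature tRNAs carry no poly(A) tail, and tRNA rows of 59 to 75 bases are shorter than the fragments usual in such libraries, so which molecules the reads on tRNA rows came from was not tested.

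Sequences below were taken from GENCODE M21 transcripts, all 37 of which had the start, end, strand and length of the deposited rows. The first set shows the ends of mRNA rows, with the coded part of the stop codon in capitals. In 3 mRNAs (mt-Co3, mt-Nd4 and mt-Cytb) the gene ends in the first base of a stop codon, and the tail is known to complete it. The row ends of mt-Co1 and mt-Nd3, with whole stop codons, are shown for comparison. Where the tail of mt-Co1 starts was not tested, and the next plus-strand row after it, mt-Td, starts at 6942. All 5 genes are without introns and lie on the plus strand of MT (mm9), mt-Co3 at 8607 to 9390, mt-Cytb at 14145 to 15288, mt-Nd4 at 10167 to 11544, mt-Co1 at 5328 to 6872 and mt-Nd3 at 9459 to 9806.
mt-Co3: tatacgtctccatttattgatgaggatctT
mt-Cytb: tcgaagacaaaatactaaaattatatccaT
mt-Nd4: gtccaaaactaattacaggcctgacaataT
mt-Co1: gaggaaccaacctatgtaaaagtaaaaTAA
mt-Nd3: acacaaaaaggattagaatgaacagagTAA

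The second set shows mt-Atp8 whole, because its last 43 bases, in capitals, are also the first 43 of mt-Atp6. mt-Atp8 lies at 7766 to 7969 and mt-Atp6 at 7927 to 8607, both on the plus strand. Reads inside this stretch fit both rows.
mt-Atp8: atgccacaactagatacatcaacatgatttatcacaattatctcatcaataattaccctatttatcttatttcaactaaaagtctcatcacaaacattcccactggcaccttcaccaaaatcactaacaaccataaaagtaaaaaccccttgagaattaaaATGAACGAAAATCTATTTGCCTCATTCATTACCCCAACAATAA

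The third set shows 9 of the tRNAs named in the genotype comparisons, written as DNA in the gene's own direction, with the anticodon in capitals. The first 4 are neighbours on the minus strand, between positions 5018 and 5326, around the origin of light-strand replication. Of the other 5, mt-Tq (3772 to 3842) is on the minus strand, and mt-Tw (4950 to 5016), mt-Tg (9391 to 9458), mt-Tr (9808 to 9875) and mt-Tl2 (11671 to 11741) are on the plus strand.
mt-Ta (alanine): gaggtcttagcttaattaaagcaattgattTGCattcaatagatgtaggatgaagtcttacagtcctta
mt-Tn (asparagine): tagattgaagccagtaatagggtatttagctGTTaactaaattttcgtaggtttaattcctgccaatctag
mt-Tc (cysteine): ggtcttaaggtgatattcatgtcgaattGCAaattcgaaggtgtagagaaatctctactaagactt
mt-Ty (tyrosine): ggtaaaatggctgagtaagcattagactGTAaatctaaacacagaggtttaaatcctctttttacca
mt-Tq (glutamine): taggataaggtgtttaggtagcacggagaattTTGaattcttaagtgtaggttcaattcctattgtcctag
mt-Tw (tryptophan): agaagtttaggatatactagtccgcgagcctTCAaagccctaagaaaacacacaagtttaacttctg
mt-Tg (glycine): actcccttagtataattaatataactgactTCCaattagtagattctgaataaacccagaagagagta
mt-Tr (arginine): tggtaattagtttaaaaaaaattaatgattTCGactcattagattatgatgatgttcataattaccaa
mt-Tl2 (leucine): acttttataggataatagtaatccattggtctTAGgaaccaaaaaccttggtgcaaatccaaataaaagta

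Mitochondrial rows made up 6.62% to 8.19% of the summed FPKM of a library, and most of that came from the mRNAs. The mRNA rows held 5.3% to 6.02% of the sum in KO SR9009, 5.97% to 6.01% in KO DMSO, 6.2% to 6.66% in control SR9009 and 5.65% to 6.95% in control DMSO libraries. The rRNA rows held 0.422% to 0.455% in KO SR9009, 0.379% to 0.43% in KO DMSO, 0.326% to 0.418% in control SR9009 and 0.289% to 0.349% in control DMSO libraries. The tRNA rows held 0.858% to 1.06% in KO SR9009, 0.878% to 0.921% in KO DMSO, 0.752% to 1.11% in control SR9009 and 0.682% to 0.882% in control DMSO libraries. In DMSO, the rRNA share of every KO library lay above that of every control library, while the mRNA and tRNA shares of the genotypes overlapped. Under SR9009, the rRNA share of every KO library again lay above, the mRNA share of every KO library lay below that of every control library, and the tRNA shares overlapped.

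**Figure D1:**
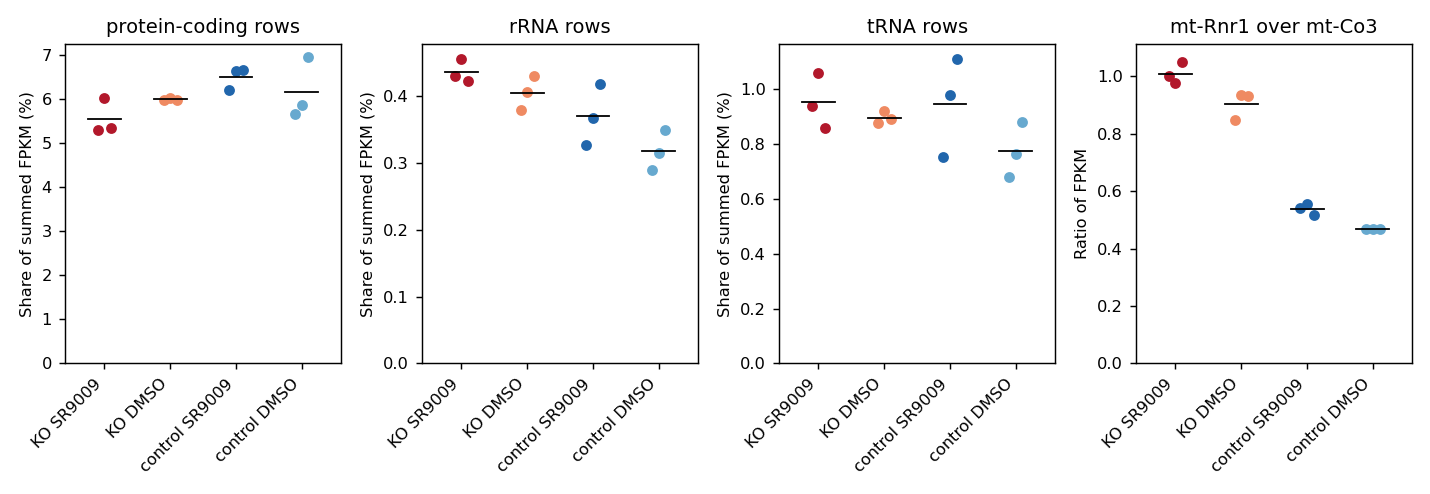
Share of summed FPKM (percent, axes from 0) held by the 13 protein-coding, 2 rRNA and 22 tRNA rows, and the ratio of mt-Rnr1 to mt-Co3, in each of 12 libraries; points are libraries and bars group means. In DMSO the mRNA and tRNA shares of the genotypes overlap and the rRNA shares do not, while the ratio averaged 1.01 in KO SR9009 and 0.903 in KO DMSO, against 0.538 in control SR9009 and 0.467 in control DMSO libraries. The rRNA values are those left after rRNA depletion.

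FPKM values are per length, which allows levels of mRNA rows to be set side by side. Exceptions are rows that share their sequence with a nuclear copy, as described below for mt-Atp6, mt-Nd4l and others. mt-Co1, the catalytic subunit of cytochrome c oxidase (complex IV), had the second highest mean level of all genes in the table, at 10315 to 12734 FPKM. The complex I subunits mt-Nd1, mt-Nd2, mt-Nd4, mt-Nd5 and mt-Nd6 had levels between 2053 and 4276 FPKM, and mt-Nd4l lay between 1318 and 1945 FPKM. The other complex IV subunits mt-Co2 and mt-Co3 and the complex III subunit mt-Cytb had levels between 1256 and 2845 FPKM. mt-Atp8 lay between 852 and 1420 FPKM. The lowest mRNA rows as deposited were mt-Atp6 (224 to 398 FPKM) and mt-Nd3 (216 to 545 FPKM). The sum of mt-Atp6 and Gm10925, a nuclear gene model described below, was 1278 to 2497 FPKM. That of mt-Nd4l and Gm10222, another such model, was 2624 to 3863 FPKM. Over the 12 libraries the highest value of an mRNA row was 1.23 times the lowest for mt-Co1 and 2.53 times for mt-Nd3, with the other 11 in between.

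**Figure D2:**
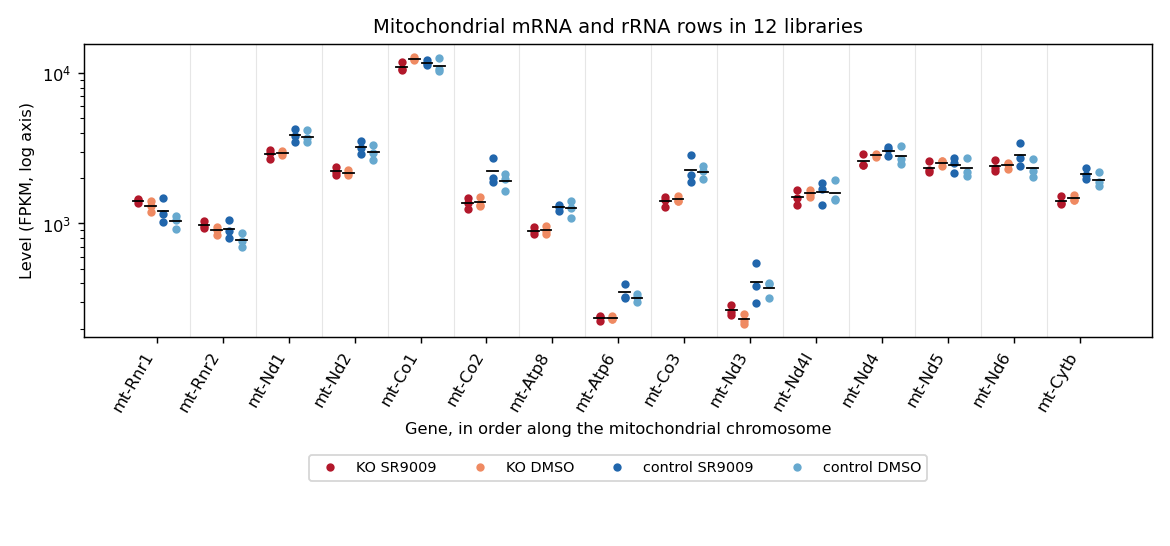
Levels (FPKM, log axis) of the 2 rRNA and 13 protein-coding rows in order along the chromosome; points are libraries, bars are means of 3 libraries and colours are the 4 groups. For mt-Nd1, mt-Nd2, mt-Co2, mt-Atp8, mt-Atp6, mt-Co3, mt-Nd3 and mt-Cytb every KO library lies below every control library of the same treatment. Of all genes tested, 17.5% did so in DMSO and 12.3% under SR9009. For mt-Nd3 the gap under SR9009 is narrow, with 289 FPKM in the highest KO and 294 FPKM in the lowest control library.

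The first comparison asks what differs in KO cells without the drug. In DMSO, 8 of 13 mitochondrial mRNAs were lower in KO than in control cells and 0 were higher, by limma on log2(FPKM + 1) with Benjamini-Hochberg adjusted p under 0.05. Of all 11213 genes tested, 8.32% were lower and 11.7% higher at that threshold. In each of the 8, every KO library lay below every control library, as in 17.5% of all genes. The 8 come from every mitochondrially encoded complex: mt-Nd1, mt-Nd2 and mt-Nd3 of complex I, mt-Cytb of complex III, mt-Co2 and mt-Co3 of complex IV, and mt-Atp6 and mt-Atp8 of ATP synthase. The other 5 were not called, and their log2 differences lay between 0.00 and 0.16. The median log2 difference was -0.40 over the 13 mRNAs and 0.04 over all genes tested. In bulk samples, fewer cells of a type, fewer copies of mitochondrial DNA and less RNA per copy cannot be told apart.

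In complex IV, mt-Co3 had 1416, 1409 and 1515 FPKM in KO DMSO libraries, against 1978, 2248 and 2407 FPKM in control DMSO libraries. The groups did not overlap, and mt-Co3 was lower by 34.6% (log2 change -0.61, SE 0.126, adjusted p = 0.00501). mt-Co2, the subunit that takes electrons from cytochrome c, had 1312, 1331 and 1499 FPKM in KO DMSO, against 1643, 1971 and 2131 FPKM in control DMSO libraries. Its groups were also apart (log2 change -0.47, adjusted p = 0.0278), although the call was lost after leaving out control DMSO library 2 or 3 or KO DMSO library 1 or 2 (adjusted p 0.0807 to 0.102), with no filter on low values (adjusted p = 0.0682), without the 2 shallowest libraries (adjusted p = 0.0672) and after quantile normalization (-0.21, adjusted p = 0.171), in 7 of 20 alternatives. mt-Co1, the third mitochondrial subunit of the same enzyme, had 12376, 12734 and 12275 FPKM in KO DMSO, against 10315, 10584 and 12615 FPKM in control DMSO libraries. Its ranges overlapped, with a log2 change of 0.16 (adjusted p = 0.153). It was called higher without control DMSO library 3 (0.25, adjusted p = 0.0191) and after rescaling to the sum of nuclear genes (0.23, adjusted p = 0.0429), and quantile normalization gave 0.

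Within the enzyme, the mRNAs stood in other proportions to each other in KO cells. The ratio of mt-Co3 to mt-Co1 was 0.114, 0.111 and 0.123 in KO DMSO, against 0.192, 0.212 and 0.191 in control DMSO libraries. mt-Co1 made up 37.5% to 38.6% of the summed mRNA FPKM in KO DMSO and 31.4% to 32.5% in control DMSO libraries. The ratios do not depend on the scaling of a library, and each was computed within a library after the single values had been seen.

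In complex I, mt-Nd2 had 2085, 2169 and 2278 FPKM in KO DMSO, against 2663, 2927 and 3348 FPKM in control DMSO libraries (log2 change -0.45, SE 0.0887, adjusted p = 0.00368). mt-Nd1 had 2844, 2949 and 3033 FPKM in KO DMSO, against 3458, 3674 and 4186 FPKM in control DMSO libraries (-0.35, adjusted p = 0.0114). Without control DMSO library 3, the adjusted p of mt-Nd1 was 0.0511. mt-Nd3 had the largest log2 change of the mRNAs, with 226, 216 and 249 FPKM in KO DMSO, against 321, 405 and 399 FPKM in control DMSO libraries (-0.70, SE 0.178, adjusted p = 0.0176). The groups of all 3 genes were apart, but mt-Nd3 lost its call without control DMSO library 2 or 3 or KO DMSO library 1 or 2 (adjusted p 0.0504 to 0.0666).

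The other 4 membrane subunits of complex I showed no called difference. mt-Nd4 averaged 2836 ± 62.1 FPKM in KO DMSO and 2807 ± 408 FPKM in control DMSO libraries, and mt-Nd4l 1588 ± 80.5 FPKM in KO DMSO and 1606 ± 293 FPKM in control DMSO libraries. mt-Nd5 averaged 2536 ± 123 FPKM in KO DMSO and 2333 ± 356 FPKM in control DMSO libraries. mt-Nd6, the only minus-strand mRNA, averaged 2438 ± 122 FPKM in KO DMSO and 2328 ± 333 FPKM in control DMSO libraries. The last bases of mt-Nd5 and mt-Nd6 overlap by 14 on opposite strands, and those of mt-Nd4l and the first of mt-Nd4 by 7 on the same strand. Within complex I, therefore, 3 of 7 subunits were lower, all of them encoded before mt-Nd4l, and no row from mt-Nd4l to mt-Nd6 was called.

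mt-Cytb, the catalytic subunit of complex III and the only one encoded in mitochondria, had 1432, 1433 and 1536 FPKM in KO DMSO, against 1769, 1892 and 2184 FPKM in control DMSO libraries. The groups were apart, and it was lower by 24.7% (log2 change -0.40, SE 0.0845, adjusted p = 0.00503). Quantile normalization reduced this to -0.12 (adjusted p = 0.227). The proton channel subunit mt-Atp6 of ATP synthase had 233, 231 and 243 FPKM in KO DMSO, against 299, 324 and 339 FPKM in control DMSO libraries (-0.44, SE 0.0798, adjusted p = 0.00201). Its partner mt-Atp8 had 857, 890 and 968 FPKM in KO DMSO, against 1093, 1269 and 1420 FPKM in control DMSO libraries (-0.47, adjusted p = 0.00219). For both rows the KO and control libraries were apart. They are known to be translated from one shared mRNA, in which the 43 bases printed above in capitals are read in both frames. The ratio of mt-Atp8 to mt-Atp6 was 3.68 to 3.99 in KO DMSO and 3.66 to 4.19 in control DMSO libraries.

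A nuclear gene model bears on the level of mt-Atp6. Gm10925, on chromosome 1 at 24620814 to 24621627 (mm9, minus strand), is identical to mt-Atp6 over 678 bases in the GENCODE transcript of that name and was listed at 1054 to 2099 FPKM, 4.6 to 5.71 times mt-Atp6. Reads from either locus cannot be told apart over that stretch, so the low level of mt-Atp6 beside mt-Atp8 is uncertain. The deposited Gm10925 row is also longer than the mt-Atp6 row. Whether reads of mt-Atp8 count toward Gm10925, and so enter the sum below, was not tested. Summed with Gm10925, mt-Atp6 averaged 1353 FPKM in KO DMSO and 2023 FPKM in control DMSO libraries (log2 change -0.57, adjusted p = 0.00699). Gm10222, on chromosome 1 at 24619243 to 24619539, is identical to mt-Nd4l over 294 bases and stood at 0.982 to 0.995 times its level. Nuclear copies of mt-Co1 (Gm13340, 97.6% identical) and mt-Co2 (Gm13341, 95.9%) stayed at 3.37 to 6.24 and 1.82 to 3.73 FPKM. Closer copies among the GENCODE transcripts were Gm28661 (mt-Co2, 100% identical over 681 bases), Gm28437 (mt-Co3, 100% over 783), Gm28438 (mt-Nd3, 99.7% over 345), Gm28439 (mt-Nd4, 100% over 876) and Gm29216 (mt-Co1, 99.8% over 483). None of these copies was found by identifier or name among the deposited genes, so they have no level here. The levels of the mRNAs they copy, and that of mt-Nd4l, therefore carry a like uncertainty about which locus their reads came from.

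The lengths of the 8 lower mRNA rows overlapped those of the other 5. The lower rows were 204 to 1144 bases long, with a median of 734, and the others 297 to 1824, with a median of 1378. The 3 longest, mt-Nd5, mt-Co1 and mt-Nd4, were not called, and neither were mt-Nd4l (297 bases) and mt-Nd6 (519 bases), both shorter than the median of the lower rows. Of the 3 mRNAs whose gene ends in the first base of a stop codon, mt-Co3 and mt-Cytb were lower and mt-Nd4 was not called. Whether length bears on the difference was not tested.

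Neither rRNA was called in DMSO. mt-Rnr1, of the small ribosomal subunit, had 1198, 1315 and 1408 FPKM in KO DMSO, against 923, 1049 and 1126 FPKM in control DMSO libraries. The groups did not overlap, with the KO libraries above (log2 change 0.34, adjusted p = 0.0584). Of all genes tested, 23.7% had groups apart with KO above. mt-Rnr2, of the large subunit, had 842, 909 and 946 FPKM in KO DMSO, against 702, 762 and 869 FPKM in control DMSO libraries (0.21, adjusted p = 0.161). The rRNA rows depended on scaling: rescaled to the nuclear sum, 5 mitochondrial rows were higher and 8 lower, and after quantile normalization 3 were higher and 6 lower, each time with both rRNAs higher, against 0 higher and 8 lower in the values as deposited.

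Set against each other, an rRNA and an mRNA of the same strand stood in other proportions in KO libraries. The rRNA values are those left after rRNA depletion, so the proportions need not be those in the cells. The ratio of mt-Rnr1 to mt-Co3 was 0.846, 0.933 and 0.929 in KO DMSO, against 0.467, 0.467 and 0.468 in control DMSO libraries. It was 0.999, 0.977 and 1.05 in KO SR9009, against 0.541, 0.555 and 0.517 in control SR9009 libraries. All 6 KO libraries lay above all 6 control libraries. This pair was picked after its values were seen, so the ratio is given with no test.

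tRNA rows spanned the widest range of levels, and 0 of the 21 tested were called in DMSO by limma, while 5 had an unadjusted p under 0.05, as did 32.5% of all genes. The log2 difference was above 0 in 16 of 21, with a median of 0.18. The minus-strand cluster printed above was among the highest of the tRNA rows. mt-Tc had 656, 772 and 778 FPKM in KO DMSO, against 472, 545 and 594 FPKM in control DMSO libraries (log2 change 0.45, adjusted p = 0.0837). mt-Tn had 593, 691 and 703 FPKM in KO DMSO, against 419, 493 and 555 FPKM in control DMSO libraries (0.44, adjusted p = 0.106). mt-Ty had 433, 516 and 512 FPKM in KO DMSO, against 313, 368 and 410 FPKM in control DMSO libraries (0.43, adjusted p = 0.131). These 3 neighbours had KO libraries above all control libraries. With mt-Td, 4 of 21 tRNA rows did so, where 23.7% of all genes did. In 1 tRNA row, mt-Tq, the KO libraries lay below all control libraries, as in 17.5% of all genes. The fourth neighbour, mt-Ta, overlapped, with 303 to 355 FPKM in KO DMSO and 224 to 313 FPKM in control DMSO libraries (0.32, adjusted p = 0.278). A fit on the DMSO libraries alone called mt-Tc, mt-Tn and mt-Ty higher (adjusted p 0.0141 to 0.0299), together with mt-Rnr1 and mt-Td.

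**Figure D3:**
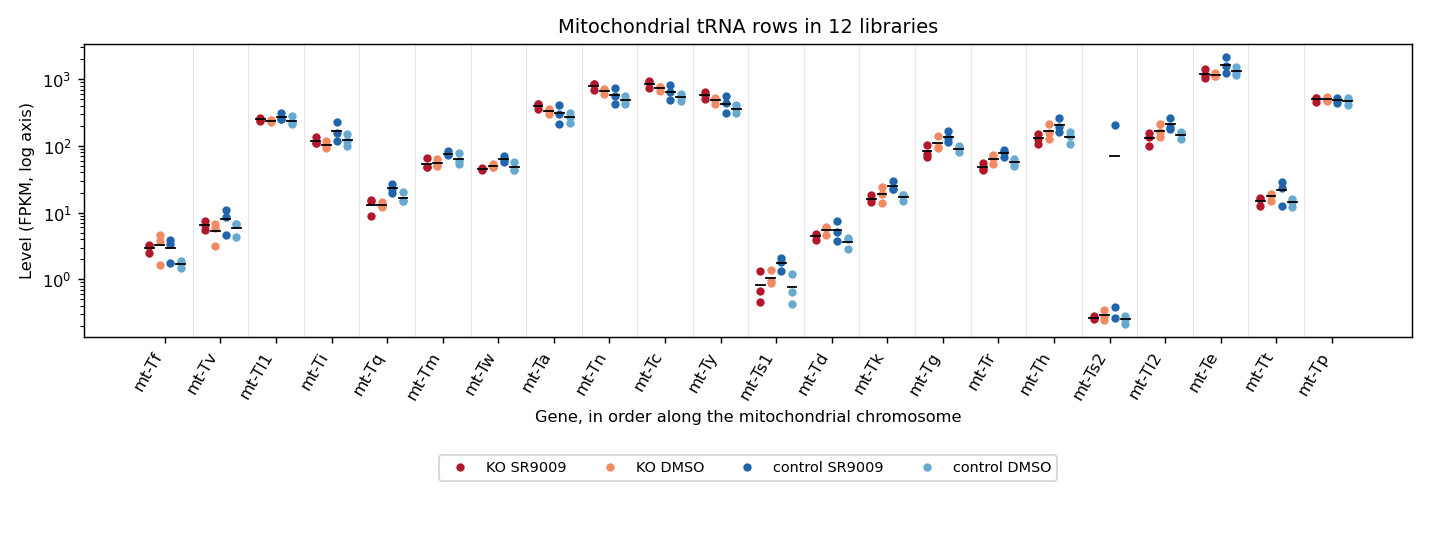
Levels (FPKM, log axis) of the 22 tRNA rows in order along the chromosome; points are libraries, bars are means of 3 libraries and colours are the 4 groups. Tested rows span mt-Ts1, at 0.434 FPKM in its lowest library, to mt-Te, at 2135 FPKM in its highest, and mt-Ts2 stands at 208 FPKM in 1 control SR9009 library and below 1 FPKM in the other 11.

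Among all tRNA rows, the glutamate tRNA mt-Te had the highest mean level, at 1031 to 2135 FPKM, followed by mt-Tc, mt-Tn, the proline tRNA mt-Tp (405 to 534 FPKM) and mt-Ty. mt-Tf, mt-Tv and mt-Td, the tRNAs for phenylalanine, valine and aspartate, were listed at 1.49 to 10.9 FPKM. The serine tRNA mt-Ts1 was lowest of those tested, at 0.434 to 2.06 FPKM. The other serine tRNA, mt-Ts2, known to lack one arm of the usual cloverleaf, was not tested because it reached 1 FPKM in too few libraries. It was listed at 208 FPKM in control SR9009 library 2 and at 0.217 to 0.38 FPKM in the other 11, although its neighbours mt-Th and mt-Tl2 stood at 99.6 to 266 FPKM in all 12. Multiplied by relative depth, the 11 low values spanned 0.211 to 0.242, so their differences moved with depth.

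The second comparison repeats the genotypes under SR9009, on 6 other libraries, and shares the estimate of the spread. The labels do not say whether DMSO and SR9009 cells came from the same mice. The comparisons may therefore not be independent. The same 8 mRNAs were lower in KO cells and 0 were higher: all 8 of the DMSO list and all 8 of the SR9009 list were shared. Of all genes tested, 7.43% were lower and 12.9% higher. The groups of the 8 mRNAs were again apart, with KO below, as in 12.3% of all genes. The median log2 difference over the 13 mRNAs was -0.51, against 0.06 over all genes. In addition 7 of 21 tRNA rows were lower, and again neither rRNA was called.

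mt-Cytb had 1365, 1522 and 1343 FPKM in KO SR9009, against 1984, 2086 and 2339 FPKM in control SR9009 libraries, and was lower by 34% (log2 change -0.60, SE 0.0845, adjusted p = 0.000296). mt-Atp6 had 240, 244 and 224 FPKM in KO SR9009, against 319, 327 and 398 FPKM in control SR9009 libraries (-0.55, adjusted p = 0.000353). mt-Atp8 had 890, 951 and 852 FPKM in KO SR9009, against 1217, 1336 and 1290 FPKM in control SR9009 libraries (-0.51, adjusted p = 0.00111). No KO library reached a control library in any of the 3. mt-Co3 had 1439, 1500 and 1297 FPKM in KO SR9009, against 1898, 2092 and 2845 FPKM in control SR9009 libraries (-0.67, adjusted p = 0.00245). mt-Co2 had 1365, 1467 and 1256 FPKM in KO SR9009, against 1892, 2020 and 2739 FPKM in control SR9009 libraries (-0.69, adjusted p = 0.003). Control SR9009 library 3 was the highest in both complex IV genes, and the groups stayed apart without it.

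Of complex I, mt-Nd2 had 2207, 2364 and 2087 FPKM in KO SR9009, against 2911, 3173 and 3522 FPKM in control SR9009 libraries (log2 change -0.53, adjusted p = 0.00111). mt-Nd1 averaged 2893 ± 203 FPKM in KO SR9009 and 3868 ± 389 FPKM in control SR9009 libraries (-0.42, adjusted p = 0.00405). mt-Nd3 had 247, 289 and 257 FPKM in KO SR9009, against 294, 386 and 545 FPKM in control SR9009 libraries (-0.58, adjusted p = 0.0387). Its groups were apart by little, and its call was lost in 10 of 20 alternatives, among them the fits without control SR9009 library 2 or 3 or any KO SR9009 library (adjusted p 0.0564 to 0.111). Of the mRNAs not called, mt-Nd4 and mt-Nd6 had log2 differences of -0.23 and -0.24 (adjusted p = 0.115 and 0.204), and mt-Nd4l, mt-Co1 and mt-Nd5 of -0.12, -0.09 and -0.06. All 13 lay below 0 here, whereas 9 of 13 did in DMSO.

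**Figure D4:**
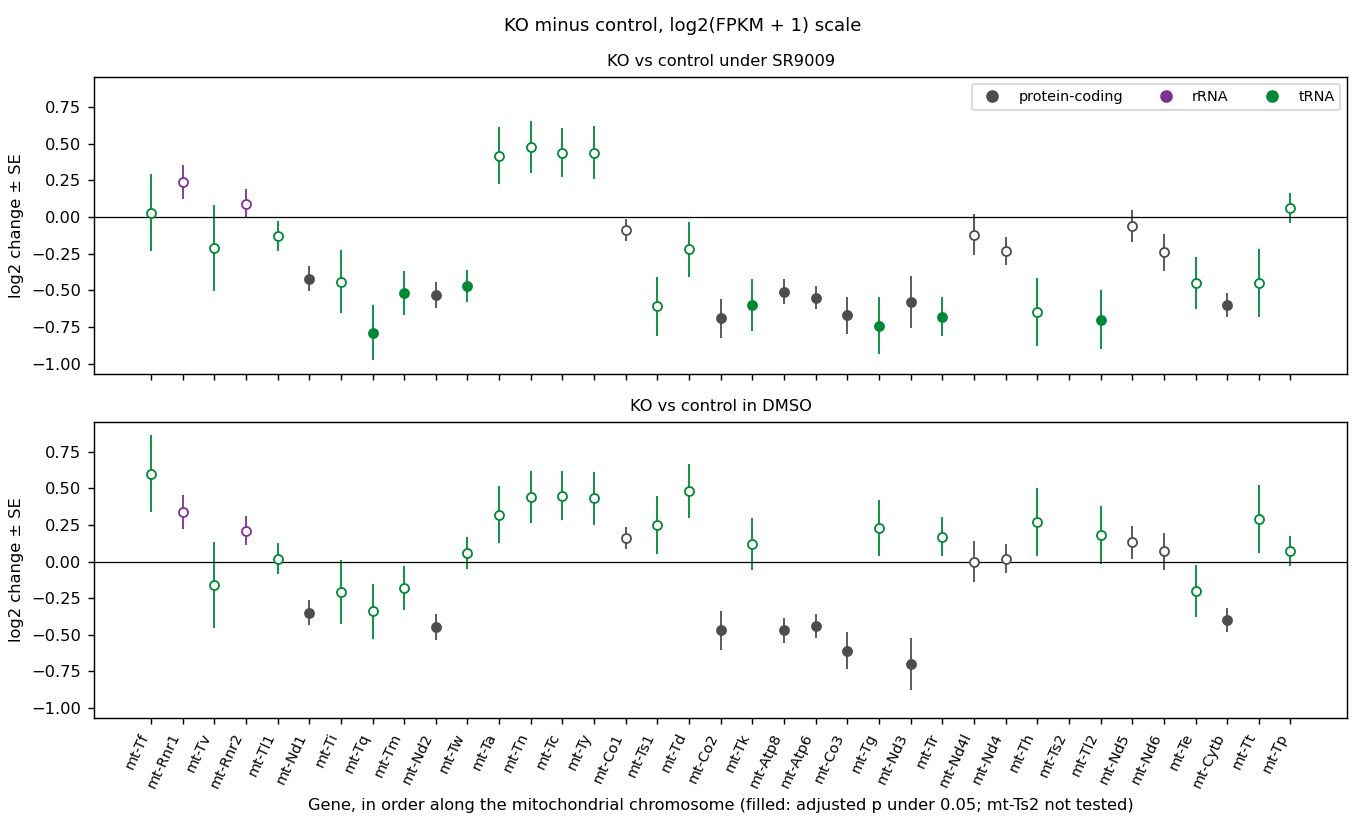
Log2 change of KO minus control on the log2(FPKM + 1) scale for the 36 tested rows, in order along the chromosome, under SR9009 (top) and in DMSO (bottom); lines are standard errors and filled points passed an adjusted p under 0.05. The same 8 mRNAs are filled in both panels, 7 tRNA rows are filled in the top panel alone, and the cluster from mt-Ta to mt-Ty lies above 0 in both.

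Among the tRNAs under SR9009, the glutamine tRNA mt-Tq had 8.99, 15.3 and 15.2 FPKM in KO, against 19.8, 27 and 22.4 FPKM in control libraries (log2 change -0.79, SE 0.188, adjusted p = 0.0107). The arginine tRNA mt-Tr had 45.4, 56.1 and 44.3 FPKM in KO SR9009, against 69.2, 79.9 and 86.6 FPKM in control SR9009 libraries (-0.68, adjusted p = 0.00337). The tryptophan tRNA mt-Tw had 47.3, 44.4 and 43.6 FPKM in KO SR9009, against 61.5, 56.8 and 70.6 FPKM in control SR9009 libraries (-0.47, adjusted p = 0.00941). These 3 kept their call in all 20 alternatives. The tRNAs for glycine (mt-Tg, -0.74), leucine (mt-Tl2, -0.70), lysine (mt-Tk, -0.60) and methionine (mt-Tm, -0.52) were also lower, with adjusted p of 0.0186 to 0.0308. All 4 lost their call without control SR9009 library 3, and likewise without KO SR9009 library 1 or library 3 (adjusted p 0.0622 to 0.111 over these fits).

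The minus-strand cluster stood the other way. mt-Tn had 840, 852 and 687 FPKM in KO SR9009, against 427, 570 and 750 FPKM in control SR9009 libraries (log2 change 0.48, adjusted p = 0.0816). mt-Ta, mt-Tc and mt-Ty had log2 differences of 0.42, 0.44 and 0.44 (adjusted p = 0.157, 0.0906 and 0.12). None was called, and control SR9009 library 3 overlapped the KO libraries in each. Without that library, 10 rows were lower (7 mRNAs and 3 tRNAs) and 5 were higher, mt-Rnr1, mt-Ta, mt-Tn, mt-Tc and mt-Ty. Those 5 had log2 differences of 0.38, 0.64, 0.68, 0.63 and 0.64. Other libraries moved the tRNA calls too. Without KO SR9009 library 3, 3 tRNAs were lower, and without KO SR9009 library 1, 4 were, each time with 0 rows higher. With all libraries, 15 were lower and 0 higher, after quantile normalization 15 lower and 4 higher, and rescaled to the nuclear sum 14 lower and 2 higher. mt-Rnr1 had 1438, 1465 and 1361 FPKM in KO SR9009, against 1027, 1161 and 1471 FPKM in control SR9009 libraries (0.24, adjusted p = 0.18), and mt-Rnr2 averaged 974 ± 51.7 FPKM in KO SR9009 and 919 ± 127 FPKM in control SR9009 libraries (0.09, adjusted p = 0.565).

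The mRNAs called in DMSO can be set against the other mRNAs in every library. Their sum over that of the other 5 was 0.525 to 0.567 in KO SR9009, 0.475 to 0.529 in KO DMSO, 0.675 to 0.804 in control SR9009 and 0.706 to 0.774 in control DMSO libraries. The DMSO differences chose the members, and the SR9009 libraries entered that choice through the filter and the shared estimate of the spread. The SR9009 ranges of the genotypes did not overlap, but they are not independent of the choice. The SR9009 cells may still come from the same mice as the DMSO cells.

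SR9009 itself moved few mitochondrial rows past the threshold. In control cells, 1 of 36 tested rows was higher with SR9009 than with DMSO and 0 were lower, where 3.69% of all genes were higher and 4.55% lower. The one called was mt-Tw, with 61.5, 56.8 and 70.6 FPKM in control SR9009, against 43.2, 43 and 57.8 FPKM in control DMSO libraries (log2 change 0.39, SE 0.11, adjusted p = 0.0473). Its ranges overlapped slightly, and it lost the call in 15 of 20 alternatives, including the fit without control SR9009 library 3 (0.31, adjusted p = 0.123) and those without control DMSO library 1 or 2 (adjusted p = 0.172 and 0.165). The log2 difference was above 0 in all 36 rows, with medians of 0.09 over the mRNAs, 0.23 over the rRNAs and 0.41 over the tRNAs, against -0.02 over all genes. In 5 rows, all of them tRNAs, the control SR9009 libraries lay above the control DMSO libraries without overlap, as in 10.8% of all genes. Besides mt-Tw, the smallest adjusted p values were those of mt-Tr (0.47, adjusted p = 0.0547) and mt-Ts1 (0.65, adjusted p = 0.0691).

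Control SR9009 library 3 stood high in this comparison. Its mitochondrial rows summed to 49533 FPKM, against 40812 and 44985 FPKM in the other control SR9009 libraries and 37159 to 46704 FPKM in control DMSO libraries. mt-Te, for example, had 1238, 1588 and 2135 FPKM in control SR9009, against 1170, 1275 and 1516 FPKM in control DMSO libraries (log2 change 0.30, not called), and mt-Co1 averaged 11744 ± 485 FPKM in control SR9009 and 11171 ± 1260 FPKM in control DMSO libraries.

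In KO cells, 0 of 36 rows were called between SR9009 and DMSO by limma, where 9.87% of all genes were called in either direction, and 2 rows had an unadjusted p under 0.05, as did 22.9% of all genes. One was mt-Co1, with 10543, 11890 and 10591 FPKM in KO SR9009, against 12376, 12734 and 12275 FPKM in KO DMSO libraries (log2 change -0.18, SE 0.0749, adjusted p = 0.169). The groups were apart with SR9009 below, as in 15.4% of all genes. The other was mt-Tr, with a log2 difference of -0.39 (adjusted p = 0.102) and overlapping ranges. The median log2 difference was -0.03 over the 13 mRNAs and -0.05 over the 21 tRNAs. For the mRNAs that were lower in KO cells the SR9009 difference within KO was between -0.06 (mt-Cytb) and 0.20 (mt-Nd3).

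**Figure D5:**
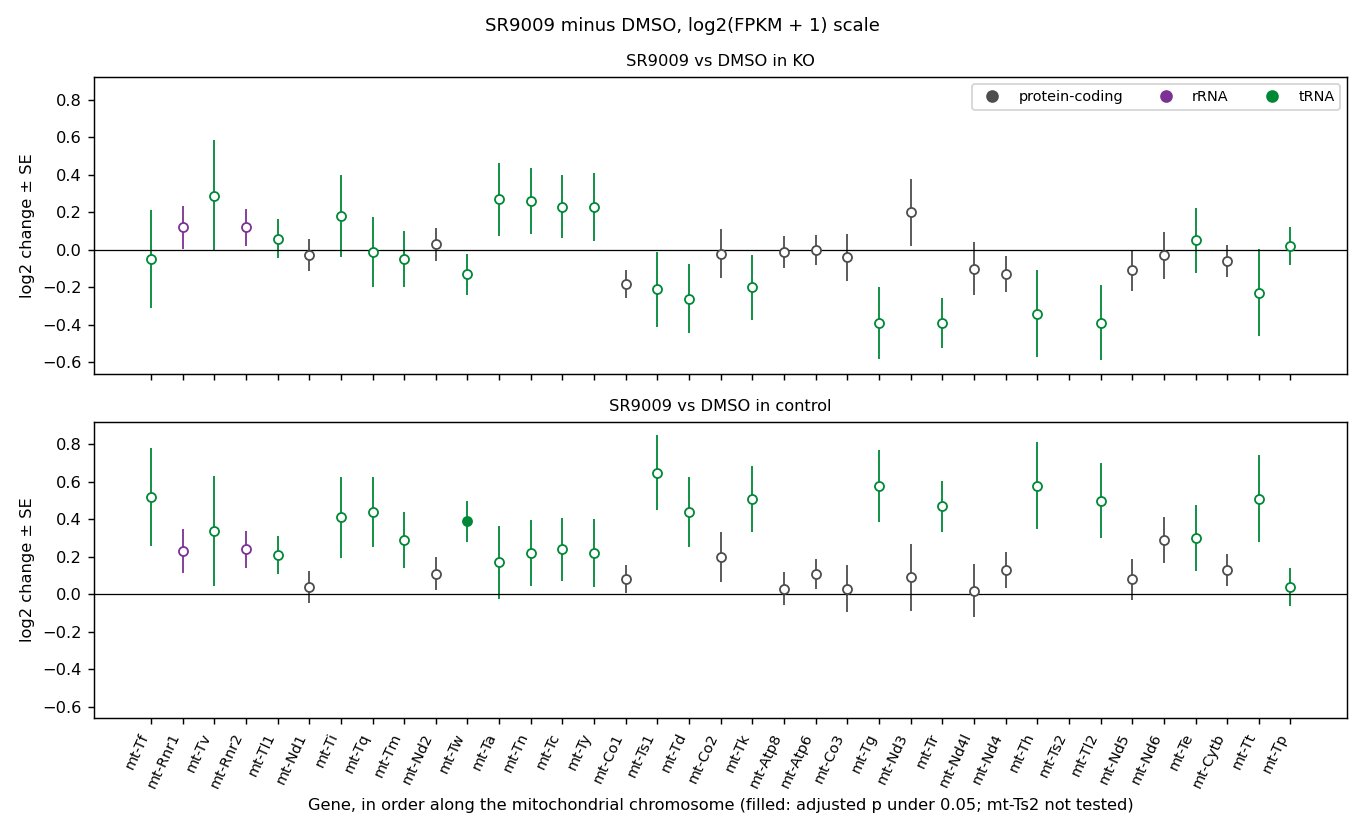
Log2 change of SR9009 minus DMSO on the log2(FPKM + 1) scale for the 36 tested rows, in order along the chromosome, in KO (top) and control cells (bottom); lines are standard errors and the filled point passed an adjusted p under 0.05. All 36 points lie above 0 in control cells, where mt-Tw alone is filled, and 13 lie above 0 in KO cells, where none is filled.

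The difference between the SR9009 effects in KO and in control cells was tested as an interaction. No mitochondrial row was called by limma, and 3 of all 11213 genes (0.0268%) were. An unadjusted p under 0.05 was found for 10 of the 36 rows and for 7.02% of all genes. The estimate was below 0 in 32 of 36 rows. It was smallest in p for mt-Tr, where SR9009 minus DMSO was -0.39 in KO and 0.47 in control cells (interaction -0.86, SE 0.191, adjusted p = 0.324), and mt-Tg followed with -0.39 and 0.58 (interaction -0.97, SE 0.272, adjusted p = 0.549). A difference between the genotypes in how these tRNA rows respond was therefore not shown, and the standard errors leave room for one. For the mRNAs, the interaction was -0.06 for mt-Co3 (SE 0.178) and -0.11 for mt-Atp6 (SE 0.113).

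Nuclear genes that express the mitochondrial genome were counted from 6 lists: transcription, DNA replication, RNA processing and stability, tRNA and rRNA modification, aminoacyl-tRNA synthetases and translation factors, with 84 genes tested. In DMSO, 10 of 84 (11.9%) were higher in KO than in control cells and 2 (2.38%) lower, against 11.7% and 8.32% of all genes. None of the 8 transcription genes, which include Polrmt, Tfam and Tfb2m, was called, with a median log2 difference of -0.14, and none of 7 regulators of mitochondrial biogenesis. The largest change among those called was in Cdk5rap1, an enzyme that modifies mitochondrial tRNAs, at 10 ± 0.817 FPKM in KO DMSO and 5.6 ± 0.377 FPKM in control DMSO libraries (log2 change 0.74, adjusted p = 9.36e-05). Dhx30, a helicase of mitochondrial ribosome assembly, was at 16.7 ± 0.787 FPKM in KO DMSO and 10.1 ± 0.389 FPKM in control DMSO libraries (0.67, adjusted p = 0.0117), and Gtpbp3, another tRNA-modifying enzyme, at 8.02 ± 1.14 FPKM in KO DMSO and 5.54 ± 0.63 FPKM in control DMSO libraries (0.46, adjusted p = 0.0333).

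Of the 20 factors that process or stabilise mitochondrial RNA, 2 were higher and 1 was lower in KO DMSO, where 11.7% and 8.32% of all genes were. Lrpprc, which stabilises mRNAs, was at 28.1 ± 2.15 FPKM in KO DMSO and 23.8 ± 0.614 FPKM in control DMSO libraries (log2 change 0.23, adjusted p = 0.0303), and Fastk, of a family of mitochondrial RNA-binding proteins, at 30.2 ± 2.28 FPKM in KO DMSO and 24.5 ± 2.12 FPKM in control DMSO libraries (0.29, adjusted p = 0.0186). Hsd17b10, a subunit of mitochondrial RNase P, was lower, at 80.1 ± 8.6 FPKM in KO DMSO and 105 ± 11.7 FPKM in control DMSO libraries (-0.38, adjusted p = 0.0261). From the other lists, Trnt1, which adds the CCA end to tRNAs, was lower, at 13.8 ± 2.31 FPKM in KO DMSO and 17.6 ± 1.68 FPKM in control DMSO libraries (-0.34, adjusted p = 0.0483). Trnt1 is named because it and Hsd17b10 were the 2 lower genes of the 84, a choice made after its value was seen. The mitochondrial topoisomerase Top1mt was higher, at 16.3 ± 0.792 FPKM in KO DMSO and 12.6 ± 0.469 FPKM in control DMSO libraries (0.35, adjusted p = 0.00225). The synthetase for mitochondrial cysteine tRNA, Cars2, was at 6.6 ± 0.747 FPKM in KO DMSO and 4.29 ± 0.611 FPKM in control DMSO libraries (0.53, adjusted p = 0.0225), and Oxa1l, which inserts newly made subunits into the inner membrane, at 15.2 ± 0.932 FPKM in KO DMSO and 12.9 ± 0.742 FPKM in control DMSO libraries (0.22, adjusted p = 0.0372).

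Under SR9009, 11 of the 84 (13.1%) were higher in KO than in control cells and 0 lower, against 12.9% and 7.43% of all genes. Cdk5rap1 was at 10.1 ± 0.389 FPKM in KO SR9009 and 5.51 ± 0.575 FPKM in control SR9009 libraries (log2 change 0.77, adjusted p = 6.22e-05), and Oxa1l at 15.5 ± 0.389 FPKM in KO SR9009 and 11.9 ± 0.278 FPKM in control SR9009 libraries (0.36, adjusted p = 0.00248). Elac2, which cuts the 3′ end of tRNAs out of the precursor, was at 19.2 ± 0.187 FPKM in KO SR9009 and 15.7 ± 1.52 FPKM in control SR9009 libraries (0.28, adjusted p = 0.0489). Within KO cells, SR9009 against DMSO gave 5 (5.95%) higher and 0 lower of the 84, against 5.32% and 4.56% of all genes. Elac2 was among the 5, at 19.2 ± 0.187 FPKM in KO SR9009 and 14.8 ± 1.08 FPKM in KO DMSO libraries (0.36, adjusted p = 0.0264). Within control cells SR9009 gave 1 (1.19%) higher and 2 (2.38%) lower, against 3.69% and 4.55% of all genes.

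The nuclear-encoded partners of the lower mRNAs were mostly not called. In DMSO, 1 of 72 nuclear-encoded subunits of complexes I, III and IV and ATP synthase was higher in KO cells and 1 was lower, each 1.39%, against 11.7% and 8.32% of all genes. Cyc1, cytochrome c1 of complex III, was at 176 ± 5.27 FPKM in KO DMSO and 160 ± 3.86 FPKM in control DMSO libraries (log2 change 0.14, adjusted p = 0.0425), and Cox8a, a small subunit of complex IV, was at 268 ± 4.16 FPKM in KO DMSO and 309 ± 7.39 FPKM in control DMSO libraries (-0.20, adjusted p = 0.0366). The median log2 difference was between -0.02 and -0.08 in these 4 lists. Under SR9009, 6 of 72 (8.33%) were higher and 2 (2.78%) lower in KO cells, against 12.9% and 7.43% of all genes. The lower ones were Ndufa6 of complex I, at 134 ± 14 FPKM in KO SR9009 and 178 ± 25.2 FPKM in control SR9009 libraries (-0.40, adjusted p = 0.0127), and Atpif1, an inhibitor of ATP synthase, at 11.8 ± 2.89 FPKM in KO SR9009 and 16.5 ± 1.35 FPKM in control SR9009 libraries (-0.47, adjusted p = 0.0324). SR9009 against DMSO called 2 of 72 (2.78%), both higher, in KO cells, where 5.32% of all genes were higher, and 0 in control cells.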

How the data were processed

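Polyadenylated, rRNA-depleted RNA of 12 hepatocyte libraries was made into libraries with the NEBNext Ultra II reagents and sequenced, per the labels' protocols. HISAT2 and StringTie were run on mm9, per the submitters' processing notes. No version, annotation release or strandedness was stated (not given in the sources used here). From the authors comes 1 deposited table of values per gene, whose header names no unit. The deposited values were read as FPKM, because library totals differ and low values of short genes fall on steps that scale with length. Relative depth comes from these steps, and read totals are unknown. Without a known strand setting, reads on any row may come from RNA of either strand, and overlapping rows on opposite strands cannot be separated.

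The 11213 genes reaching 1 FPKM in 3 or more libraries were fitted as log2(FPKM + 1) with limma 3.58.1 (trend, robust) in R 4.3.3, with a mean per group over all 12 libraries. P-values are two-sided and adjusted over all genes tested by the Benjamini-Hochberg method at 0.05. Changes of rows at low levels are understated on this scale. All 36 mitochondrial rows tested, and up to 4 genes with the smallest adjusted p per nuclear list, could be named. Fits were tested on simulated data. Members and lists were chosen with earlier results of these data known. Nuclear copies were searched with blastn 2.17.0 (at least 90% identity over 60 bases) against GENCODE M21 transcripts. Alternatives were another pseudocount, no filter, quantile normalization, rescaling to the nuclear sum, a plain variance model, the replicate block, fewer libraries and, chosen after seeing the data, sums with nuclear copies. The 2 libraries of lowest depth were left out in one of them.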

Additional observations from a re-analysis of the deposited data

How the results depend on the processing

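The 8 mRNAs lower in KO cells in DMSO stayed 5 to 8 of the same 8 in every alternative, with 5 without control DMSO library 3. Calls of protein-coding rows ranged from 6 to 8 when libraries were left out in turn, (without control DMSO library 3, mt-Co1 was called higher beside 5 lower), and from 7 to 8 under SR9009. For all mitochondrial rows, the count in DMSO was 13 after rescaling to the nuclear sum and with the compared groups alone, and 6 to 13 over left-out libraries. Under SR9009 it was 10 to 19. For SR9009 in control cells it was 0 with no filter, quantile normalization, the plain variance model or the compared groups alone, 3 without the 2 shallowest libraries, and 0 to 2 over left-out libraries. In KO cells it was 0 to 1.

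Over all genes, calls for SR9009 in control cells numbered 605 without the 2 shallowest libraries, 415 with the compared groups alone and 531 to 920 over left-out libraries, and in KO cells 604 to 1437. The genotype counts were 1602 to 2712 in DMSO and 1645 to 2250 under SR9009. Interaction calls were 1 with no filter, quantile normalization, the plain variance model or without the 2 shallowest libraries, and 0 to 5 over left-out libraries. The difference of mt-Rnr2 under SR9009 became -0.00077 without control SR9009 library 1, also when KO DMSO library 1 was left out as well, and that of mt-Co1 was 0 after quantile normalization in both genotype comparisons. The causes were not tested.

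Over all genes tested, same-numbered libraries did not deviate together (correlations -0.112 to 0.0911). Such correlations cannot exclude a pairing, because scatter in most genes could hide one seen in a few. mt-Nd2, for example, rose from library 1 to library 3 in KO DMSO, control SR9009 and control DMSO, but not in KO SR9009. With the replicate block, 9 mitochondrial rows were called in DMSO (mt-Rnr1 higher besides the 8), 14 under SR9009, 1 for SR9009 in control cells, and 0 genes for the interaction. The shares of the 3 classes gave ratios between genotypes that moved by less than the spread between replicates when the 10 most abundant nuclear genes were left out. Depth limits the lowest tRNA rows, and values near 0.2 FPKM rest on very few fragments.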
